A study of Mus musculus with 6 samples.

Results

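This account concerns 42 genes of T lymphocytes and natural killer cells in the mammary gland, and asks whether genes of naive and resting T cells and genes of effector T cells and natural killer cells differed between mice with and without caveolin-3. A gene was measured here when the array annotation gave at least 1 probe set, the group of short oligonucleotides that reads 1 transcript, to that symbol alone, and where it had several, the one with the highest average of all 6 arrays stands for it. By that rule 39 of the 42 genes were measured, of 18193 genes measured in all. They divide into 27 of 29 T cell genes and 12 of 13 effector and natural killer cell genes. Lck and Tcf7 had no such probe set and are not analysed here, and the only listed probe set of Klrb1c is shared with its neighbour Klrb1b. The tissue was the mammary gland of virgin females of the FVB/N background, all 4 months old. 3 glands were wild type (WT) and 3 came from Cav-3 knockout mice (Cav-3KO), and the labels name no treatment. The sources used here do not give the allele, the oestrous stage, the handling of the lymph node or the number of mice behind the glands, so p-values measure only the spread between these samples, which may be technical.

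A T cell recognises antigen through its receptor, whose signal is carried into the cell by the CD3 chains and the zeta chain and passed on by kinases and adaptor proteins. Naive T cells circulate between blood and lymphoid organs, guided by CCR7 and kept alive through the interleukin-7 receptor, and need co-stimulation through receptors such as CD28 to respond. Effector T cells and natural killer cells kill through perforin and granzymes and make interferon-gamma, and natural killer cells see their targets through receptors of the KLR and NCR families. The mammary gland holds such cells within its ducts and stroma, and a lymph node lies in the inguinal fat pad of the mouse.

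Each gland has 1 single-channel array, whose values are on a log2 scale after RMA, a background correction, quantile normalization and summary of probes, and are listed in the order of replicates 1, 2 and 3, so differences between arrays are log2 ratios. Array medians lay between 5.77 and 5.80, and correlations over all probe sets were 0.990 to 0.995 within a genotype and 0.977 to 0.987 between genotypes. The probe set of the targeted gene Cav3 read 4.79, 5.02 and 4.74 in wild type against 4.76, 4.83 and 4.72 in knockout, a difference of −0.08 ± 0.10 (SE, adjusted p = 0.679), and since the sources do not place it inside or outside the deletion, it checks no label. All differences are knockout minus wild type from limma's moderated test over 45037 probe sets, with Benjamini-Hochberg adjusted p and a threshold of 0.05, and errors of differences are standard errors. Of the 18193 genes, 16.2% passed the threshold, 8.51% lower and 7.65% higher in knockout. For 19.8% of genes all 3 knockout arrays lay below all 3 wild-type arrays and for 18.5% all lay above. Such a separation gives 0.1 in a two-sided exact permutation test over arrays, the smallest p that 10 splits allow.

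In the knockout gland 14 T cell genes were lower, and 10 of the 12 effector and natural killer genes did not pass the test; the difference between these shares was not tested. Of 39 measured members 16 fell and 0 rose, against the 8.51% lower and 7.65% higher over all genes. By limma's unadjusted p under 0.05, 25 members were lower and 0 higher. The share of all genes at that p was not taken, and the 8.51% and 7.65% do not apply to these counts. Of the 27 T cell genes 14 fell (51.9%), with a median log2 difference of −0.52, a level 1.44-fold lower. Of the 12 effector and natural killer genes 2 fell (16.7%), Klrd1 and Prf1, with a median of −0.13. The median over all genes was −0.0091. By sign alone 34 of 39 members were lower, where 51.6% of all genes were. The arrays of the 2 genotypes did not overlap for 26 members, all of them lower, where 19.8% of all genes were lower without overlap. The 5 members above wild type by sign were Thy1, Klrk1, Gzmb, Gzmk and Ifng, none past the threshold. In whole tissue, fewer cells of a type and less RNA per cell cannot be told apart. The number of members that fell was 12, 10 and 6 when wild-type 1, 2 or 3 was left out and 8, 10 and 3 when knockout 1, 2 or 3 was. The share of all genes that were lower also fell short of 8.51% in these fits, at 5.33, 5.23 and 4.45% and then 6.89, 8.04 and 3.33%. The number of T cell genes among the members was 10, 10 and 6, and 8, 9 and 3 in the same order, and of effector and natural killer genes 2, 0 and 0, and 0, 1 and 0. Wild-type 3 had the highest value of all 6 arrays in 28 of the 39 members, and without it the median of the T cell genes was −0.40. The median of the effector and natural killer genes was −0.21 without wild-type 1 or knockout 3, −0.09 without knockout 1 and −0.03 without wild-type 3.

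**Figure D1:**
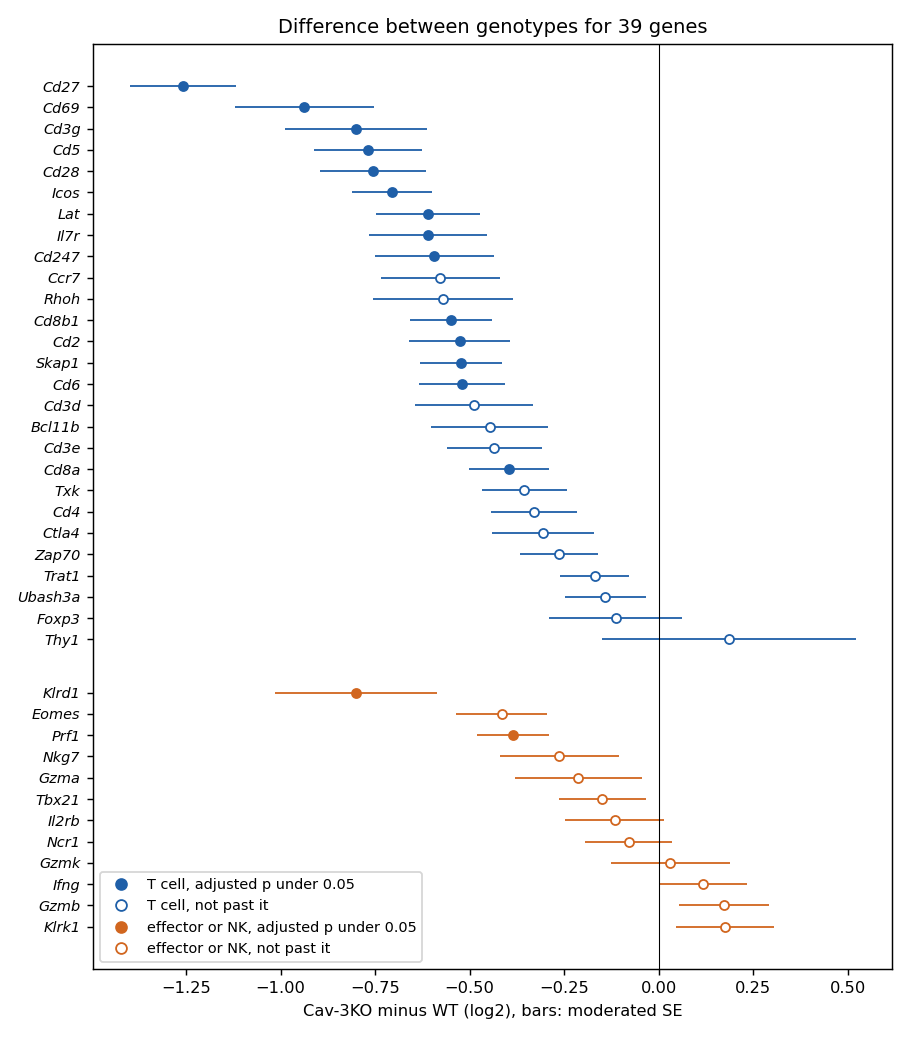
Knockout minus wild-type log2 difference (horizontal axis) of each of the 39 measured genes with its moderated standard error, T cell genes above and effector and natural killer genes below, filled where the adjusted p is under 0.05. 14 T cell genes and 2 effector or natural killer genes are filled, all left of 0, and Cd27 lies furthest left at −1.26.

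The DNA just upstream of 5 members is shown because they span the range of response, from Cd27, which fell most, through Cd5 and the neighbouring genes Cd3g and Cd3d, to Gzmb, which did not pass the test. Each sequence is the 250 bases before the annotated transcript start, from RefSeq on GRCm38.p6, written 5′ to 3′ on the strand of the gene. Capitals mark 4 motifs of 6 bases searched on both strands: TGTGGT, the core read by RUNX factors, AGGAAG, an ETS core, CAGGTG, an E-box form, and AGGTGT, a T-box core. The run ACACCTG holds an E-box and a T-box match that overlap. Cd27 lies at chr6:125237028-125237277 on the minus strand, Cd5 at chr19:10738975-10739224 on the minus strand, Cd3g at chr9:44980432-44980681 on the minus strand, Cd3d at chr9:44981536-44981785 on the plus strand and Gzmb at chr14:56262335-56262584 on the minus strand.
Cd27: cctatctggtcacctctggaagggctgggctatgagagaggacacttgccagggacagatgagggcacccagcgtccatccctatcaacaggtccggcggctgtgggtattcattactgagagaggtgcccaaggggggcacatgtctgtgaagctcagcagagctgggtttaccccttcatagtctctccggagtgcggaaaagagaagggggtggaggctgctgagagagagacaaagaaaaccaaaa
Cd5: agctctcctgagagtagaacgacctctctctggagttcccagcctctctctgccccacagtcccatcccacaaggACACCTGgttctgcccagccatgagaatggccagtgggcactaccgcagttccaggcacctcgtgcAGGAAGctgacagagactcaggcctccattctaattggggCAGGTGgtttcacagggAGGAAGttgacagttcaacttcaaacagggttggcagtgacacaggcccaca
Cd3g: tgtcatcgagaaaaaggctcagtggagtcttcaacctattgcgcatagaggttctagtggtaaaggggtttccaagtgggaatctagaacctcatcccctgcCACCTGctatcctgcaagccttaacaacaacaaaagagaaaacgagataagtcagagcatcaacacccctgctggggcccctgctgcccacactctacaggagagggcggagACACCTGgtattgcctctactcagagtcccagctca
Cd3d: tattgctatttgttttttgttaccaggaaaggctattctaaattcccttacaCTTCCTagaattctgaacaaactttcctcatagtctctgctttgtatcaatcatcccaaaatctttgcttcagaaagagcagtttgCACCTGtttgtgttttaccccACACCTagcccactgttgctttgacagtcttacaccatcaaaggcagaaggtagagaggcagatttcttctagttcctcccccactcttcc
Gzmb: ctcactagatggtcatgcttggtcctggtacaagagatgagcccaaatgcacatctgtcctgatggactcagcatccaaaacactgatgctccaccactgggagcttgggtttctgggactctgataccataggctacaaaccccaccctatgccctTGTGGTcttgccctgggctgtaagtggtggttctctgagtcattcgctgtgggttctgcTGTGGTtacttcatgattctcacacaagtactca

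The Cd27 window held none of the 4 motifs, Cd5 held 5 matches, Cd3g and Cd3d 3 each and Gzmb 2, both of them the RUNX core. Cd3g and Cd3d are transcribed away from each other from starts 1355 bases apart. Promoter windows were given for 17 measured T cell genes and 10 measured effector and natural killer genes. The RUNX core was found upstream of 3 of 17 T cell genes, 6 of 10 effector and natural killer genes and 15.9% of 27025 genes in the table. The ETS core was found upstream of 10 of 17 T cell genes, 3 of 10 effector and natural killer genes and 32.3% of 27025 genes in the table. The E-box form was found upstream of 6 of 17 T cell genes, 4 of 10 effector and natural killer genes and 19.4% of 27025 genes in the table, and the T-box core upstream of 6 of 17 T cell genes, 4 of 10 effector and natural killer genes and 13.6% of 27025 genes in the table. These matches describe letters only, and no binding was measured.

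All 7 genes of the receptor complex and its co-receptors lay below wild type with no overlap of arrays, as did 19.8% of all genes. Of the 7 genes 4 fell, with a median of −0.49 over the 7, or −0.32 without wild-type 3. Cd3g, the CD3 gamma chain, read 6.72, 6.998 and 7.49 in wild type against 6.15, 6.22 and 6.44 in knockout, and fell by 0.80 ± 0.19 (adjusted p = 0.0316), a level 1.74-fold lower. Cd247, the zeta chain that carries most of the signalling motifs, read 6.66, 6.52 and 7.14 in wild type against 6.13, 6.16 and 6.25 in knockout, and fell by 0.59 ± 0.16 (adjusted p = 0.0486). In both genes wild-type 3 was highest and every knockout array lay below every wild-type array. Cd8b1, the beta chain of the co-receptor of cytotoxic T cells, read 7.19, 7.18 and 7.49 in wild type against 6.70, 6.76 and 6.76 in knockout, and fell by 0.55 ± 0.11 (adjusted p = 0.0177). Its partner chain Cd8a read 6.85, 6.70 and 7.03 in wild type against 6.51, 6.39 and 6.48 in knockout, and fell by 0.40 ± 0.11 (adjusted p = 0.0493). The highest knockout array of Cd8a was 6.51 and the lowest wild-type array 6.70. Cd3e, the CD3 epsilon chain, read 7.80, 7.79 and 8.19 in wild type against 7.58, 7.46 and 7.44 in knockout, a difference of −0.43 ± 0.13 (adjusted p = 0.063). Cd4, the co-receptor of helper T cells, read 7.45, 7.21 and 7.48 in wild type against 7.06, 6.91 and 7.18 in knockout, a difference of −0.33 ± 0.11 (adjusted p = 0.105). Both were separated by genotype without passing the threshold, as was Cd3d, the CD3 delta chain, at −0.49 ± 0.16 (adjusted p = 0.0825). Cd3g lost the call without wild-type 2 or 3 or knockout 1, 2 or 3 (adjusted p = 0.0743, 0.0569, 0.0843, 0.0601 and 0.0685). Cd247 lost the call without wild-type 1 or 3 or knockout 1, 2 or 3 (adjusted p = 0.0854, 0.0726, 0.111, 0.0843 and 0.114). Cd8a lost the call without wild-type 1 or 3 or knockout 1, 2 or 3 (adjusted p = 0.12, 0.143, 0.0834, 0.0949 and 0.123). Cd8b1 lost the call without knockout 3 (adjusted p = 0.0609).

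Of 4 other surface receptors of T cells 3 fell, and Thy1 did not. Cd5, an inhibitory receptor that tunes the antigen signal, read 7.37, 7.42 and 7.89 in wild type against 6.81, 6.72 and 6.85 in knockout, and fell by 0.77 ± 0.14 (adjusted p = 0.0149), to a level 1.7-fold lower. Its relative Cd6 read 7.46, 7.56 and 7.85 in wild type against 7.11, 7.08 and 7.12 in knockout, and fell by 0.52 ± 0.11 (adjusted p = 0.0252). Cd2, an adhesion receptor, read 7.21, 7.08 and 7.54 in wild type against 6.66, 6.71 and 6.89 in knockout, and fell by 0.53 ± 0.13 (adjusted p = 0.0407). In all 3 genes the knockout arrays lay below every wild-type array. Thy1, singled out here for its different pattern and known from fibroblasts and neurons as well as T cells, read 10.23, 8.96 and 9.61 in wild type against 10.02, 9.25 and 10.10 in knockout. Its groups overlapped (difference 0.19 ± 0.34, adjusted p = 0.781), and without wild-type 2 the difference was −0.14. Cd5 lost the call without knockout 3 (adjusted p = 0.0513). Cd6 lost the call without wild-type 2 or 3 or knockout 1 or 3 (adjusted p = 0.0588, 0.0618, 0.0595 and 0.078). Cd2 lost the call without wild-type 1 or 3 or knockout 1, 2 or 3 (adjusted p = 0.0864, 0.101, 0.103, 0.0758 and 0.0731).

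Of 7 measured genes that carry the receptor signal inside the cell 2 fell, and the differences of all 7 were negative, with a median of −0.36. Lat, the adaptor on which the signalling complex assembles, read 7.81, 7.95 and 8.26 in wild type against 7.50, 7.22 and 7.47 in knockout, and fell by 0.61 ± 0.14 (adjusted p = 0.0277). Skap1, an adaptor that links the receptor to integrin adhesion, read 7.42, 7.44 and 7.68 in wild type against 7.07, 6.86 and 7.05 in knockout, and fell by 0.52 ± 0.11 (adjusted p = 0.021). For both, the highest knockout array lay below the lowest wild-type array. The other 5 did not pass: Rhoh, a GTPase needed for receptor signalling, differed by −0.57 ± 0.19 (adjusted p = 0.0877), the kinase Txk by −0.36 ± 0.11 (adjusted p = 0.082) and the kinase Zap70 by −0.26 ± 0.10 (adjusted p = 0.145). The adaptor Trat1 differed by −0.17 ± 0.09 (adjusted p = 0.278) and Ubash3a, a dampener of the receptor signal, by −0.14 ± 0.11 (adjusted p = 0.455). Trat1 had a mean within the 2.04 to 3.25 spanned by 9 probe sets of 3 Y-linked genes, genes that a female lacks. Lat lost the call without wild-type 2 or 3 or knockout 2 or 3 (adjusted p = 0.0667, 0.0756, 0.0544 and 0.073). Skap1 lost the call without wild-type 3 or knockout 3 (adjusted p = 0.0685 and 0.0614).

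The genes of naive and resting T cells had the lowest median of the role groups, −0.61 over 5 measured genes. All 5 were separated by genotype and lower in knockout, as were 19.8% of all genes, and 3 of the 5 passed the threshold. Cd27, a co-stimulatory receptor of the tumour necrosis factor receptor family that naive T cells carry, read 5.74, 5.72 and 6.04 in wild type against 4.48, 4.41 and 4.83 in knockout. It fell by 1.26 ± 0.14 (adjusted p = 0.0027), to a level 2.39-fold lower, the largest difference among the 39 members, with the highest knockout array at 4.83 and the lowest wild-type array at 5.72. Cd28, the main co-stimulatory receptor, read 6.96, 7.17 and 7.40 in wild type against 6.22, 6.48 and 6.56 in knockout, and fell by 0.76 ± 0.14 (adjusted p = 0.0148). Il7r, the receptor for the survival cytokine interleukin-7, read 8.44, 8.27 and 8.34 in wild type against 7.41, 8.05 and 7.75 in knockout, and fell by 0.61 ± 0.16 (adjusted p = 0.043). In Il7r the knockout arrays were the more scattered, with knockout 2 nearest to wild type. Ccr7, which guides naive T cells into lymph nodes, read 7.09, 6.98 and 7.52 in wild type against 6.62, 6.46 and 6.78 in knockout, a difference of −0.58 ± 0.16 (adjusted p = 0.0514). The transcription factor gene Bcl11b, which keeps T cell identity, differed by −0.45 ± 0.15 (adjusted p = 0.102). Cd27 and Cd28 kept the call when any 1 array was left out. Il7r lost the call without wild-type 1, 2 or 3 or knockout 1 or 3 (adjusted p = 0.124, 0.0878, 0.115, 0.0719 and 0.119).

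Of 4 genes of activated and regulatory T cells 2 fell and 2 did not pass. Icos, a co-stimulatory receptor induced on activated T cells, read 8.12, 8.22 and 8.09 in wild type against 7.27, 7.57 and 7.49 in knockout, and fell by 0.71 ± 0.10 (adjusted p = 0.00684), to a level 1.63-fold lower. Cd69, an early activation marker that also holds cells in tissue, read 5.13, 5.83 and 5.18 in wild type against 4.48, 4.52 and 4.32 in knockout, and fell by 0.94 ± 0.18 (adjusted p = 0.0174). Wild-type 2 stood highest for Cd69, and all 3 knockout arrays lay at or below 4.52. Foxp3, the defining factor of regulatory T cells, read 4.11, 4.15 and 4.07 in wild type against 3.64, 4.40 and 3.95 in knockout, and its groups overlapped (−0.11 ± 0.18, adjusted p = 0.741, and 0.06 without knockout 1). The inhibitory receptor Ctla4, which regulatory T cells also carry, differed by −0.31 ± 0.14 (adjusted p = 0.192), with overlapping arrays. Icos kept the call when any 1 array was left out. Cd69 lost the call without knockout 3 (adjusted p = 0.07).

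**Figure D2:**
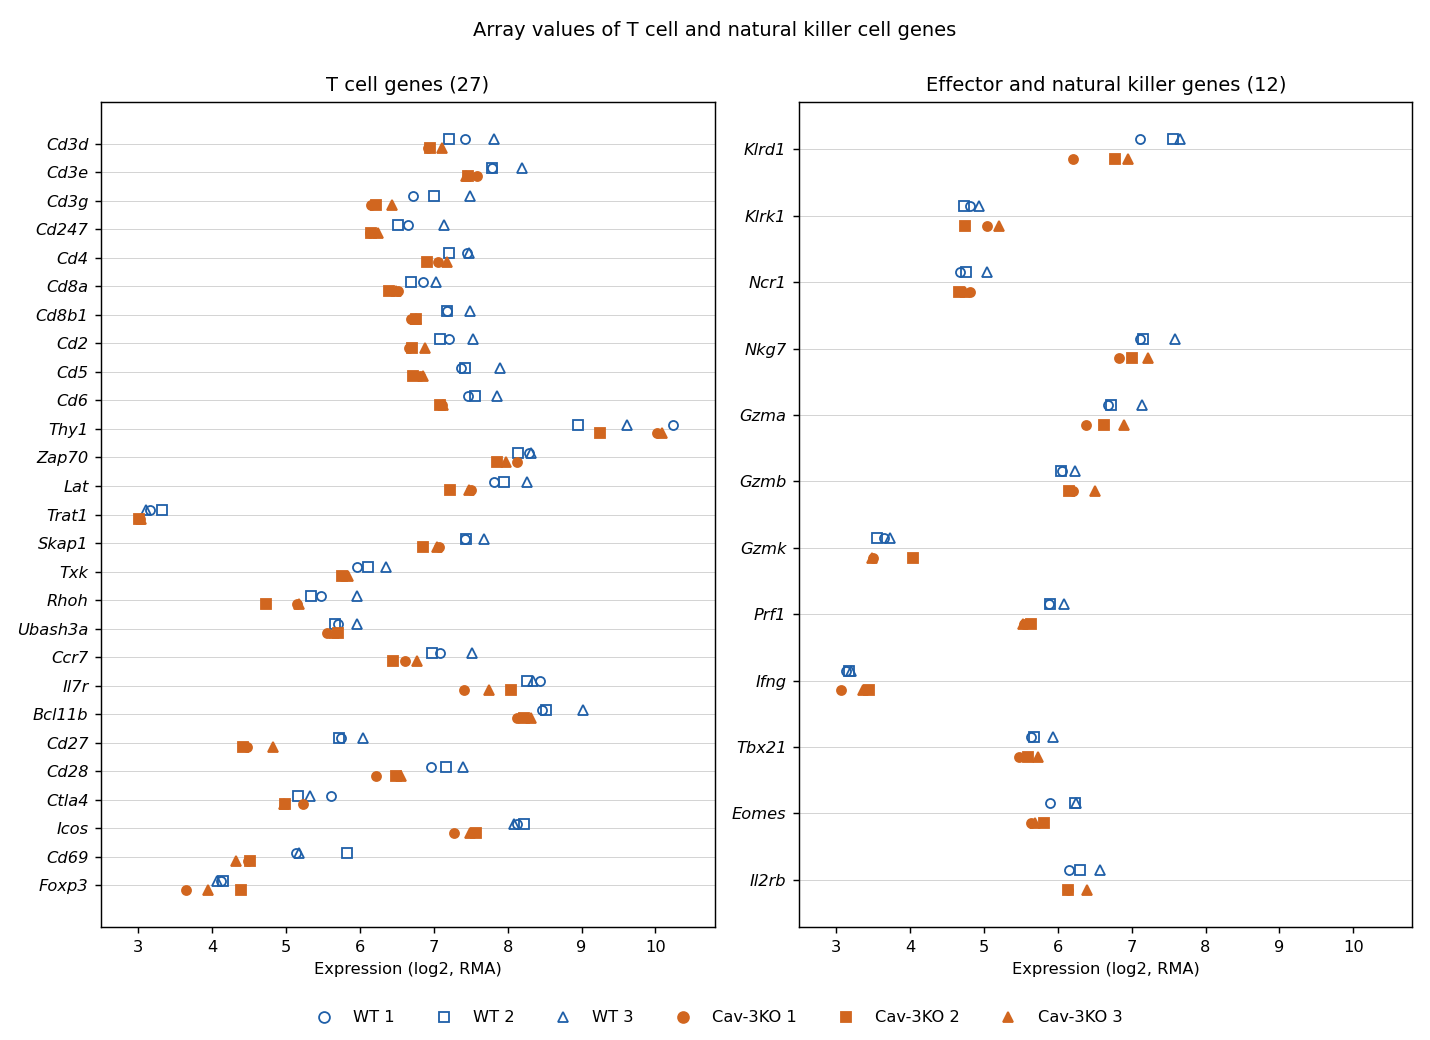
Log2 RMA value (horizontal axis) of each measured gene in each array, blue open symbols for wild type and orange filled symbols for knockout, circle, square and triangle for replicates 1, 2 and 3. In the left panel 23 of 27 T cell genes have all orange points left of all blue points, in the right panel 3 of 12 effector and natural killer genes do. Over all measured genes the share was 19.8%.

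Among 3 measured natural killer receptors 1 fell, with a median of −0.08. That median turned to 0.029 without wild-type 3, and was −0.155 without wild-type 1 and −0.041 without knockout 2. Klrd1, the CD94 chain that pairs with NKG2 receptors, read 7.11, 7.56 and 7.65 in wild type against 6.21, 6.77 and 6.95 in knockout, and fell by 0.80 ± 0.21 (adjusted p = 0.0484), a level 1.74-fold lower. Ncr1, the activating receptor NKp46 that marks natural killer cells, read 4.67, 4.76 and 5.04 in wild type against 4.82, 4.67 and 4.75 in knockout, and its groups overlapped (−0.08 ± 0.11, adjusted p = 0.723, and 0.03 without wild-type 3). Klrk1, the activating receptor NKG2D, ranged from 4.73 to 4.94 in wild type and from 4.75 to 5.21 in knockout (0.18 ± 0.13, adjusted p = 0.443). The probe set shared by Klrb1b and Klrb1c, not counted among the members, read 5.60, 5.66 and 5.83 in wild type against 5.67, 5.90 and 5.98 in knockout. Klrd1 lost the call without wild-type 2 or 3 or knockout 1, 2 or 3 (adjusted p = 0.134, 0.151, 0.0872, 0.0604 and 0.0607).

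Of 6 cytotoxic and effector molecules 1 fell, and 3 lay above and 3 below wild type by sign, with a median of −0.09. The sign of that median turned without wild-type 3 (0.005) or knockout 1 (0.018), and it was −0.148, −0.182 and −0.138 without wild-type 2, knockout 2 or knockout 3. Gzma, granzyme A, read 6.69, 6.72 and 7.14 in wild type against 6.38, 6.63 and 6.89 in knockout, with overlapping groups (−0.21 ± 0.17, adjusted p = 0.475). Gzmb, granzyme B, whose upstream sequence is given with its 2 RUNX cores, read 6.06, 6.04 and 6.24 in wild type against 6.20, 6.16 and 6.50 in knockout (0.17 ± 0.12, adjusted p = 0.401). For Gzmb the knockout arrays reached higher than the wild-type arrays, but within overlapping ranges. Prf1, the pore-forming perforin, read 5.87, 5.89 and 6.09 in wild type against 5.54, 5.64 and 5.53 in knockout, and fell by 0.39 ± 0.10 (adjusted p = 0.0374). Its other probe set differed by −0.01 (adjusted p = 0.961), and with both averaged the difference was −0.20 (adjusted p = 0.132). Ifng, interferon-gamma, read 3.13, 3.18 and 3.21 in wild type against 3.06, 3.45 and 3.36 in knockout (0.12 ± 0.11, adjusted p = 0.567), a mean within the range of the Y-linked probe sets. Nkg7, a granule membrane protein, differed by −0.26 ± 0.16 (adjusted p = 0.334) and Gzmk, granzyme K, by 0.03 ± 0.16 (adjusted p = 0.93), both with overlapping arrays. For Gzmk the sign turned without wild-type 2 (−0.02) or knockout 2 (−0.15) and with array weights (−0.05). Prf1 lost the call without wild-type 1, 2 or 3 or knockout 1 or 3 (adjusted p = 0.0707, 0.0752, 0.117, 0.0873 and 0.118).

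None of 3 genes for effector transcription factors and the interleukin-15 receptor passed the threshold in limma, and 1 of them, Eomes, had an unadjusted p under 0.05. Eomes, a factor of natural killer and memory T cells, read 5.89, 6.24 and 6.25 in wild type against 5.63, 5.82 and 5.69 in knockout, separated by genotype with a difference of −0.42 ± 0.12 (adjusted p = 0.0635, and 0.0348 without wild-type 1). The other probe set of Eomes differed by −0.17 (adjusted p = 0.517), with overlapping arrays. Tbx21, the T-bet factor of type 1 responses, differed by −0.15 ± 0.12 (adjusted p = 0.464) and Il2rb, a receptor chain for interleukin-2 and interleukin-15, by −0.12 ± 0.13 (adjusted p = 0.636). The arrays of Tbx21 and Il2rb overlapped.

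T cell genes were set against effector and natural killer genes within each array by subtracting list means, a value read here only by its change between arrays. The mean of the T cell genes was 6.88, 6.84 and 7.12 in wild type against 6.42, 6.40 and 6.51 in knockout. The mean of the effector and natural killer genes was 5.57, 5.65 and 5.87 in wild type against 5.40, 5.56 and 5.64 in knockout. The T cell means did not overlap between genotypes and the effector means did. The effector and natural killer genes had the lower mean in every array, and what this lower level contributes to the subtractions was not tested. T cell minus effector means were 1.32, 1.19 and 1.25 in wild type against 1.02, 0.85 and 0.87 in knockout, lower by 0.34 in knockout with no overlap. For the naive and resting genes the same subtraction gave 1.77, 1.68 and 1.80 in wild type against 1.17, 1.17 and 1.21 in knockout, lower by 0.57, with SDs of 0.06 and 0.02 (n = 3 each). The naive mean rests on 5 genes with differences from −0.447 to −1.26, the largest that of Cd27. The subtraction was not made without Cd27. All 3 knockout arrays lay below all 3 wild-type arrays in both subtractions, which carry no test because the genes were chosen with results of these data known.

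**Figure D3:**
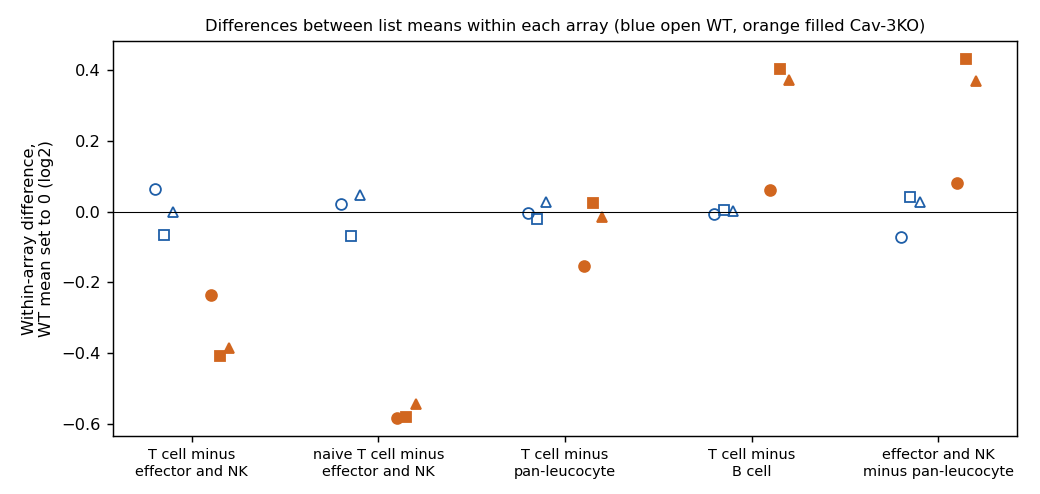
Difference between 2 list means within each array (vertical axis, log2, with the wild-type mean set to 0) for 5 pairs of lists, blue open symbols for wild type, orange filled symbols for knockout, circle, square and triangle for replicates 1, 2 and 3. Both subtractions of effector and natural killer genes put the knockout arrays below 0, by 0.34 and 0.57 on average, while T cell minus pan-leucocyte means overlap.

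Genes of the same pathways outside the 42 gave further counts, to be set beside 8.51% lower and 7.65% higher over all genes. Of 16 other measured genes of T cell receptor signalling 4 fell and 1 rose, with a median of −0.32. Nfatc1, a transcription factor switched on by calcium, fell by 0.56 ± 0.09 (adjusted p = 0.00788), Fyn, a Src family kinase, fell by 0.48 ± 0.09 (adjusted p = 0.0161), and Prkcq, the protein kinase C of the T cell synapse, fell by 0.55 ± 0.11 (adjusted p = 0.0183). Bcl10, an adaptor between receptors and NF-kappaB in many cell types, rose by 0.57 ± 0.10 (adjusted p = 0.0118). The wild-type means of Nfatc1, Fyn and Prkcq were 8.23, 8.66 and 8.91, above the 7.93 of Cd3e. Which cells of the gland these transcripts came from was not tested. Fyn lost the call without wild-type 2 or 3 or knockout 3 (adjusted p = 0.0534, 0.0581 and 0.0618). Prkcq lost the call without wild-type 3 (adjusted p = 0.0641). The number of these signalling genes that fell was 3, 2 and 1 when wild-type 1, 2 or 3 was left out and 4, 4 and 2 when knockout 1, 2 or 3 was. Of 10 other genes of naive and recirculating T cells 3 fell and 0 rose, with a median of −0.37. Ms4a6b, a membrane protein with a wild-type mean of 9.87, above the 7.93 of Cd3e, fell by 0.41 ± 0.08 (adjusted p = 0.0201). Lef1, a partner of TCF1 in T cells, fell by 0.51 ± 0.11 (adjusted p = 0.021), and Satb1, a chromatin organiser, fell by 0.44 ± 0.11 (adjusted p = 0.0406). Ms4a6b lost the call without wild-type 1 or 3 or knockout 3 (adjusted p = 0.072, 0.065 and 0.0633). Lef1 lost the call without wild-type 2 or 3 or knockout 1 or 3 (adjusted p = 0.0609, 0.0646, 0.0538 and 0.0733). Satb1 lost the call without wild-type 1, 2 or 3 or knockout 2 or 3 (adjusted p = 0.0754, 0.086, 0.13, 0.0804 and 0.134). The number of naive and recirculating genes that fell was 1, 1 and 0 when wild-type 1, 2 or 3 was left out and 2, 3 and 0 when knockout 1, 2 or 3 was.

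Of 18 other effector and natural killer genes 1 fell (5.56%) and 1 rose, where 8.51% of all genes were lower and 7.65% higher. Their median was −0.01 and ranged from −0.061 without wild-type 2 to −0.001 without wild-type 3. Crtam, a receptor of activated cytotoxic cells, fell by 0.51 ± 0.12 (adjusted p = 0.0282), while Klrc1, the inhibitory NKG2A chain that pairs with CD94, rose by 0.47 ± 0.12 (adjusted p = 0.0447). Klrc1 read 4.51, 4.58 and 4.47 in wild type against 4.76, 5.20 and 5.01 in knockout, so it was higher in all 3 knockout arrays, where its partner Klrd1 was lower. The number of these genes that fell was 0, 0 and 0 when wild-type 1, 2 or 3 was left out and 1, 2 and 0 when knockout 1, 2 or 3 was. Crtam lost the call without wild-type 1, 2 or 3 or knockout 3 (adjusted p = 0.0614, 0.0804, 0.0972 and 0.0716). Klrc1 lost the call without wild-type 1, 2 or 3 or knockout 2 or 3 (adjusted p = 0.117, 0.0924, 0.133, 0.0762 and 0.131). Of 15 genes of T helper cells, cytokines and checkpoints 4 fell and 2 rose. Bcl6, a repressor that follicular helper T cells, B cells and other cells use, fell by 1.35 ± 0.21 (adjusted p = 0.00768), Cxcr5, the follicle homing receptor also carried by B cells, fell by 0.70 ± 0.13 (adjusted p = 0.015), and the checkpoint receptor Lag3 fell by 0.60 ± 0.13 (adjusted p = 0.0232). Gata3, a factor of T helper cells that is also a luminal epithelial factor, rose by 0.82 ± 0.12 (adjusted p = 0.0071). Cxcr5 lost the call without knockout 3 (adjusted p = 0.0614). Lag3 lost the call without wild-type 1 or 3 or knockout 1 or 3 (adjusted p = 0.0694, 0.0774, 0.0557 and 0.0512). The number of the 15 that fell was 2, 3 and 2 when wild-type 1, 2 or 3 was left out and 2, 3 and 1 when knockout 1, 2 or 3 was.

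Several lists of markers of other cell types differed beside the T cell genes, and their part in the results was not tested. Over all genes 8.51% were lower and 7.65% higher, the shares to set beside the counts of these lists. All 11 measured B cell markers fell, with a median of −0.79, and their mean was 8.26, 8.20 and 8.48 in wild type against 7.73, 7.36 and 7.51 in knockout. The number of B cell markers that fell was 6, 8 and 6 when wild-type 1, 2 or 3 was left out and 10, 8 and 5 when knockout 1, 2 or 3 was. Ms4a1, the CD20 antigen, fell by 0.88 ± 0.11 (adjusted p = 0.00378), Fcer2a, a low-affinity receptor for immunoglobulin E on mature B cells, fell by 0.996 ± 0.13 (adjusted p = 0.00445), and Bank1, a B cell signalling scaffold, fell by 0.79 ± 0.09 (adjusted p = 0.0028). Of 10 pan-leucocyte genes 5 fell and 0 rose, with a median of −0.45 and means of 9.95, 9.92 and 10.15 in wild type against 9.63, 9.43 and 9.58 in knockout. The number was 2, 2 and 1 when wild-type 1, 2 or 3 was left out and 3, 4 and 1 when knockout 1, 2 or 3 was. Cd53, a leucocyte tetraspanin, fell by 0.60 ± 0.09 (adjusted p = 0.0076), and Ptprc, the common leucocyte antigen CD45, fell by 0.48 ± 0.10 (adjusted p = 0.019). Ptprc lost the call without wild-type 2 or 3 or knockout 3 (adjusted p = 0.053, 0.0701 and 0.0701). T cell minus pan-leucocyte means overlapped between genotypes, with a change of −0.05, whereas effector and natural killer minus pan-leucocyte means were higher by 0.29 in knockout and T cell minus B cell means by 0.28, both without overlap. In knockout 1 these last 2 subtractions were closest to wild type, at −4.23 against a highest wild-type value of −4.27, and at −1.31 against −1.36.

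Of 12 macrophage markers 1 fell (8.33%), near the 8.51% of all genes that were lower, and 0 rose. Their median was −0.18, with means of 9.31, 9.16 and 9.03 in wild type against 9.06, 8.99 and 9.01 in knockout. Mrc1, the mannose receptor, fell by 0.55 ± 0.13 (adjusted p = 0.0325), and Cx3cr1, a chemokine receptor of macrophages and some effector lymphocytes, differed by 0.58 ± 0.17 (adjusted p = 0.0604). The median was −0.089 without wild-type 1, and Cx3cr1 passed the threshold without knockout 2, higher by 0.77 (adjusted p = 0.00662). Mrc1 lost the call without wild-type 1 or 2 or knockout 2 or 3 (adjusted p = 0.102, 0.0981, 0.0591 and 0.113). Of 7 dendritic cell markers 3 fell, and 1, 0 and 0 when wild-type 1, 2 or 3 was left out and 3, 2 and 0 when knockout 1, 2 or 3 was. Ccl22, a chemokine of mature dendritic cells, fell by 0.50 ± 0.10 (adjusted p = 0.0185), and Siglech, a marker of plasmacytoid dendritic cells, fell by 0.47 ± 0.10 (adjusted p = 0.0197). Itgax, the CD11c integrin chain, named after its values were seen, was higher in all 3 knockout arrays without passing, at 0.38 ± 0.11 (adjusted p = 0.0718). Ccl22 lost the call without wild-type 1, 2 or 3 or knockout 3 (adjusted p = 0.0501, 0.0544, 0.069 and 0.0699). Siglech lost the call without wild-type 2 or 3 or knockout 3 (adjusted p = 0.0524, 0.0716 and 0.0701). Of 7 plasma cell markers 3 fell, with means from 8.78 to 8.97 in wild type and from 8.63 to 8.98 in knockout. Ighm, the heavy chain of immunoglobulin M, fell by 0.61 ± 0.13 (adjusted p = 0.0205), and Mzb1, a folding cofactor of antibody secreting cells, fell by 0.40 ± 0.09 (adjusted p = 0.0248). Prdm1 fell by 0.47 ± 0.11 (adjusted p = 0.0313), a call lost when any 1 array was left out. The list was split by sign, with 4 genes lower and 3 higher, which are named after their values were seen: Derl3, an endoplasmic reticulum protein, differed by 0.61 ± 0.34 with all 3 knockout arrays above wild type, Igha, the heavy chain of immunoglobulin A, by 0.30 ± 0.13 and Jchain, the joining chain, by 0.14 ± 0.17, none past the threshold. Ighm lost the call without wild-type 1 or 2 or knockout 3 (adjusted p = 0.0637, 0.0666 and 0.0779). Mzb1 lost the call without wild-type 1, 2 or 3 or knockout 3 (adjusted p = 0.0603, 0.0794, 0.0638 and 0.0873). Plasma cell markers that fell numbered 0, 0 and 1 when wild-type 1, 2 or 3 was left out and 2, 2 and 0 when knockout 1, 2 or 3 was. Of 5 genes of lymph node stroma and high endothelium, a list that also holds the lymphocyte gene Ltb, 1 fell and 1 rose. Cxcl13, the chemokine of B cell follicles, read 9.90, 10.17 and 9.76 in wild type against 8.96, 9.27 and 8.85 in knockout, and fell by 0.92 ± 0.15 (adjusted p = 0.00866). Madcam1, an addressin of high endothelial venules, read 5.62, 5.24 and 5.85 in wild type against 6.66, 7.33 and 7.42 in knockout, and rose by 1.57 ± 0.23 (adjusted p = 0.00619). Ltb, lymphotoxin beta, differed by −0.51 ± 0.14 (adjusted p = 0.0515) and Chst4, a sulphotransferase of high endothelium, by −0.41 ± 0.12 (adjusted p = 0.0562).

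Markers of epithelium and fat moved as well. All 9 luminal epithelium markers rose, with a median of 1.54 and list means of 9.84, 9.28 and 9.40 in wild type against 11.03, 10.89 and 11.05 in knockout. Cldn7 and Epcam, a junction and an adhesion protein of epithelium, rose by 1.86 ± 0.14 (adjusted p = 0.000752) and 1.55 ± 0.13 (adjusted p = 0.00106). The number of luminal markers that rose was 9, 8 and 6 when wild-type 1, 2 or 3 was left out and 6, 8 and 6 when knockout 1, 2 or 3 was. Of 7 adipocyte markers 5 fell, with a median of −0.78 and list means of 11.27, 11.36 and 11.53 in wild type against 10.85, 10.51 and 10.48 in knockout. Pparg, the regulator of fat cell formation, fell by 1.11 ± 0.13 (adjusted p = 0.0028), and Retn, resistin, fell by 0.78 ± 0.10 (adjusted p = 0.00375), and the number of adipocyte markers that fell was 3, 5 and 4 when wild-type 1, 2 or 3 was left out and 6, 4 and 3 when knockout 1, 2 or 3 was. Of 10 skeletal muscle markers 0 passed the threshold in limma with all arrays, with list means of 8.20, 8.90 and 5.59 in wild type against 5.18, 6.70 and 7.31 in knockout, overlapping between genotypes. Myh2, a fast myosin heavy chain, differed by −1.33 ± 0.81 (adjusted p = 0.343) and Ckm, muscle creatine kinase, by −1.29 ± 0.82 (adjusted p = 0.365). Without wild-type 1 the difference of Myh2 was −0.22, and without wild-type 2 that of Ckm was −0.39. By limma's unadjusted p under 0.05 the number of muscle markers was 0 as well. Wild-type 3, highest in most T cell genes, had the lowest muscle mean of the wild-type arrays, and 1 muscle marker passed, lower, when it was left out. Markers of epithelium and fat shifted in opposite directions in the same arrays in which T cell genes were lower, and what a changed tissue makeup contributes was not tested.

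**Figure D4:**
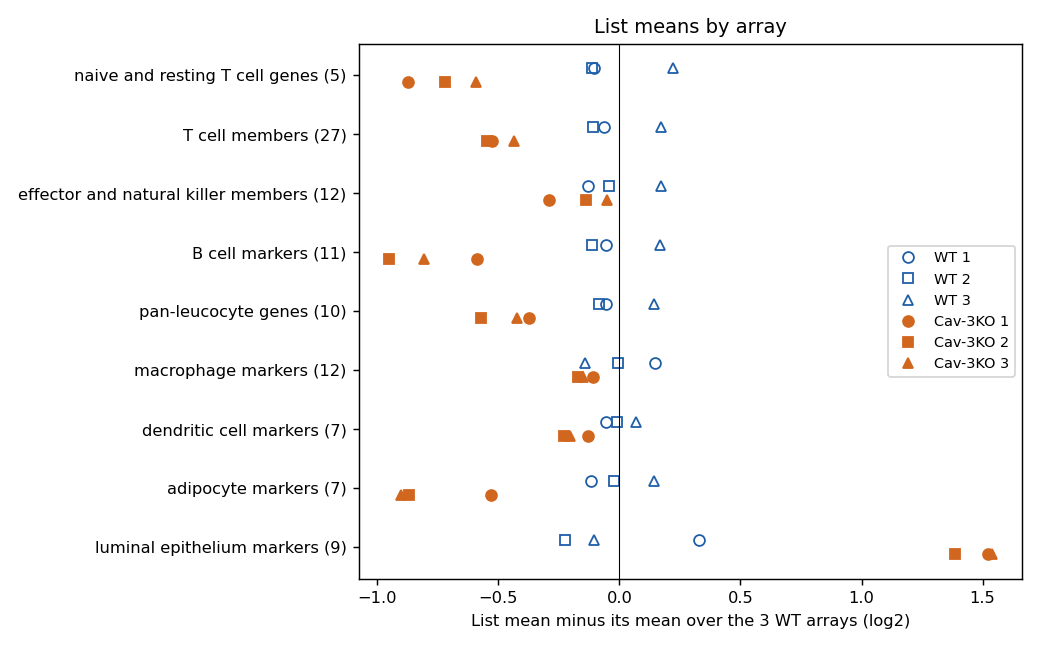
Mean of each gene list in each array minus its mean over the 3 wild-type arrays (horizontal axis, log2), blue open symbols for wild type and orange filled symbols for knockout, circle, square and triangle for replicates 1, 2 and 3, with the number of genes in brackets. The T cell, naive T cell, B cell, pan-leucocyte, dendritic cell and adipocyte lists lie wholly left of wild type in knockout. The effector and natural killer list and the macrophage list overlap wild type, and luminal markers lie to the right.

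15 of the 39 genes had more than 1 probe set, which gave 26 probe sets besides those used. Each of the 26 had a negative difference, and 9 passed the threshold, where 6.57% of all probe sets were lower. These 9 covered Cd8a, Cd28, Icos and Il7r, which were called by their main probe set too, and Zap70, Ubash3a and Bcl11b, which were not. For Bcl11b the other probe sets differed by −0.59 ± 0.10 (adjusted p = 0.0105), −0.40 ± 0.12 and −0.35 ± 0.18, for Zap70 by −0.47 ± 0.10 (adjusted p = 0.0251) and −0.30 ± 0.12, and for Ubash3a by −0.42 ± 0.11 (adjusted p = 0.0463). The 3 other probe sets of Cd247 differed by −0.11, −0.07 and −0.10, which did not pass the test. Cd247, Prf1 and Skap1 were each called by 1 of their probe sets. The other probe sets of Skap1 differed by −0.27 ± 0.09 (adjusted p = 0.0943) and −0.24 ± 0.12 (adjusted p = 0.264).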

How the data were processed

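Arrays were grouped by genotype and numbered as their titles give. The authors deposited 1 log2 value per probe set and array, made with RMA per the submitters' processing notes, with no version named in the sources. RMA makes the distributions of the arrays alike, so a shift shared by most transcripts is not seen, and 3 arrays a group limit the precision.

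Of 45101 probe sets 64 controls were left out, and 45037 were tested with no filter on low values. The platform annotation gave 1 symbol to 34945, several to 932 and none to 9160. Symbols were updated by Entrez identifier with a RefSeq table of GRCm38.p6 for 34741 probe sets, and 204 kept the older name. Genotype was fitted in limma 3.58.1 (R 4.3.3; lmFit and eBayes, two-sided), a step tested on simulated data. Figures used matplotlib 3.10.9.

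The members and lists were chosen with earlier results of these data known. Values in every array are given for members past the threshold and for a set of defining genes, and of each other list 2 to 4 members with the smallest p are named. Alternatives changed the normalization, filter, variance prior, weights, block, probe set choice, threshold, test and arrays used.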

Additional observations from a re-analysis of the deposited data

How the results depend on the processing

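The number of members that rose was 0 in all 18 alternatives, by limma in 17 of them, and the 3 medians stayed below 0. The number of members that fell was 2 at an adjusted p under 0.01, both T cell genes, and 22 at one under 0.10, where 2.31% and 12.7% of all genes were lower. A plain equal-variance test gave 0 members, T cell genes and effector genes, where 0.297% of all genes were lower. With 1 array left out the members that fell ranged from 3 to 12, the T cell genes from 3 to 10 and the effector and natural killer genes from 0 to 2, while the share of all genes lower ranged from 3.33 to 8.04%. The number of effector and natural killer genes was 0 at 0.01 and 1 with cyclic loess, median centring, array weights, averaged probe sets, the replicate block or without probe sets that can match several transcripts. Cyclic loess ended the calls of Cd247, Cd8a and Klrd1 (adjusted p = 0.0520, 0.0522 and 0.0513), and among the alternatives that kept all arrays and the 0.05 threshold in limma, Cd8a lost its call in 5, Cd247, Klrd1 and Prf1 in 3 each and Il7r in 1. Ccr7 passed in 5 of them, with 0.0388 when dim probe sets were left out, which kept 26 members. Signs turned for 4 genes past no threshold: Gzmk was −0.0483 with array weights and ranged from −0.154 to 0.127 with 1 array left out, Thy1 from −0.136 to 0.504, Ncr1 from −0.155 to 0.0287 and Foxp3 from −0.314 to 0.0631. The causes were not tested.

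The replicate number as a block gave 16 members and 15 T cell genes that fell, and 1 effector gene. Same-numbered arrays had correlations of −0.0542, 0.185 and −0.0179 between their deviations from group means, and wild-type 3 correlated best with knockout 1 (0.26), so the numbers were not taken to pair the samples.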
